A study of Rattus norvegicus with 40 samples.

Results

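Mitochondrial fatty acid oxidation and ketogenesis were described here by 9 genes, Cpt1a, Cpt2, Acadvl, Acadl, Acadm, Acadsb, Hadha, Hadhb and Bdh1. Members were all probe sets whose gene symbol in the annotation of the array was one of these 9, which gave 11 probe sets of the 12783 that name a single gene and 9 genes of 10411. Each gene was measured with 1 probe set except Cpt1a and Bdh1, which have a pair each, and none of the 9 was missing from the array. Their mRNA was measured in the livers of male rats 10 to 12 weeks old on Affymetrix RAE230A arrays, 1 array per rat and 4 rats per group, after a single oral dose of 100 µg/kg of the dioxin TCDD or of its vehicle, corn oil. The strains/lines with the variant aryl hydrocarbon receptor (AHR), which lacks part of its transactivation domain, were Line-A (LnA) and Han/Wistar (H/W), and both resist the lethality of TCDD. Those with wildtype AHR were Line-C (LnC) and Long-Evans (L-E), and both are sensitive. Both lines descend from matings between the H/W and L-E strains, so their genomes are mixtures of both. The rats of a group shared a cage, so cage and group cannot be told apart. The 10 groups were H/W, LnA, L-E and LnC rats given TCDD and killed at 19 h, H/W and L-E rats given TCDD and killed at 3 h, and H/W, LnA, L-E and LnC rats given corn oil and killed at 19 h. No corn oil group of 3 h was analysed here.

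Long-chain fatty acids enter the mitochondrial matrix as carnitine esters, which Cpt1a makes at the outer membrane and Cpt2 turns back into acyl-CoA at the inner membrane. Acyl-CoA dehydrogenases then open each round of beta-oxidation, with Acadvl and Acadl acting on very long and long chains, Acadm on medium chains and Acadsb on short branched chains that come mostly from isoleucine. Hadha and Hadhb form the trifunctional protein, which completes the round for long chains, and in the fasted liver much of the acetyl-CoA becomes ketone bodies, the last of which, beta-hydroxybutyrate, is made by Bdh1. Many of these genes are targets of PPARA, the nuclear receptor that senses fatty acids in the liver.

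Promoter sequences were taken from RefSeq (GRCr8 assembly) as windows that run from 250 bases before to 50 bases after the start of the gene. A window was given for 8 of the 9 members, all but Acadl. Those of Hadha and Hadhb are shown first because their mRNAs varied together more closely than those of any other pair of members. Hadha lies on the plus strand (chr6:31907551-31907850) and Hadhb on the minus strand (chr6:31907451-31907750), with 300 bases between their start sites, from which they are read in opposite directions. Capitals mark the 200 bases that both windows hold (chr6:31907551-31907750), each read 5′ to 3′ on the strand of its own gene.
Hadha: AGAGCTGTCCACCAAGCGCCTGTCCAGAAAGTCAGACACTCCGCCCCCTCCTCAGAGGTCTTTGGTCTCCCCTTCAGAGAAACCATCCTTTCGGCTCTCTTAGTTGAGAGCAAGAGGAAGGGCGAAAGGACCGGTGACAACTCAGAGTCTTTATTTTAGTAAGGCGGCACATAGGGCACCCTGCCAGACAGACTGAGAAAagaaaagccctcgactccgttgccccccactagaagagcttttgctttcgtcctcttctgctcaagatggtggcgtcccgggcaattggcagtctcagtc
Hadhb: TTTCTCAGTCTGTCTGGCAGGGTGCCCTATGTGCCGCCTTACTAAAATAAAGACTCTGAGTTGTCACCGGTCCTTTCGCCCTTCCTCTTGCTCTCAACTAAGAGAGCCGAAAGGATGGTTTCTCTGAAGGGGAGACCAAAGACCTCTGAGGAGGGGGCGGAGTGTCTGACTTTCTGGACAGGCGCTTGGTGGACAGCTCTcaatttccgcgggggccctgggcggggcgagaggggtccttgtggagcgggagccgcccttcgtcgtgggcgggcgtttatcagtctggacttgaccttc

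The windows of Acadvl, Acadm and Acadsb are shown because these were the members whose TCDD differences passed a threshold at 19 h. Acadvl lies on the minus strand (chr10:55236656-55236955), Acadm on the minus strand (chr2:245542815-245543114) and Acadsb on the plus strand (chr1:195618966-195619265). Capitals mark each GCGTG, the core of the AHR response element AHRE-I, and each AGGTCA, one repeat of the element bound by PPARA and RXR, on either strand. CACGC is the first motif read from the opposite strand.
Acadvl: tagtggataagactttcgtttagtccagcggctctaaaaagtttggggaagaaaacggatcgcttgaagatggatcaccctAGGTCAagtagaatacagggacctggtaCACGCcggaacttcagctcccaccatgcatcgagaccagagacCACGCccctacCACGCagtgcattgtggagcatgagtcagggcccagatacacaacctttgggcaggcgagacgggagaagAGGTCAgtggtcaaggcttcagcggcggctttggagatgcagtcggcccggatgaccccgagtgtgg
Acadm: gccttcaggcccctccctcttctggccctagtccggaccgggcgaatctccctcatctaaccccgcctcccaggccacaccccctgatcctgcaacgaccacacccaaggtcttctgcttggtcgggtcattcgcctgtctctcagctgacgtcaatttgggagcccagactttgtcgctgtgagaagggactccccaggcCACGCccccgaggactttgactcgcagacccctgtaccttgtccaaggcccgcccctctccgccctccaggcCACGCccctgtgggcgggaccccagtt
Acadsb: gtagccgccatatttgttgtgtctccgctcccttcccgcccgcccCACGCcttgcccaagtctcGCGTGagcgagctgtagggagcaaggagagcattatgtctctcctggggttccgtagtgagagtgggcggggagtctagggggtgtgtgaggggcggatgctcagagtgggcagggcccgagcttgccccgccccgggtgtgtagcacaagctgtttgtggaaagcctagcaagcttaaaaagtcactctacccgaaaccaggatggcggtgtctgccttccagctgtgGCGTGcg

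GCGTG was in 5 of the 8 windows of members and in 29.7% of the 33469 promoter windows of all genes. Acadvl held 3 copies (141, 98 and 87 bases before the start), Acadsb 3 (205 and 186 bases before and 43 after) and Acadm 2 (49 bases before and 23 after). Cpt2 held 2 copies (158 and 141 bases before) and Cpt1a 1 (153 bases before). AGGTCA was in 2 windows of members, those of Acadvl (169 and 17 bases before the start) and Hadhb (42 bases after), and in 16.2% of all windows. A pair of AGGTCA on 1 strand with 1 base between them, which contains that motif, was in 0 of the windows of members and in 0.0538% of all windows. A match is a run of letters and was not tested for binding.

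Values are the deposited log2 signals, on which a difference of 1 is a change by a factor of 2 in signal, and signals of different genes were not set against each other. All 9 members lay above the median of the array on all 40 arrays, and 7 of 8 hepatocyte markers were measured and lay above it in every group. The TCDD-responsive genes Cyp1a1, Cyp1a2, Cyp1b1, Nqo1, Tiparp and Aldh3a1 were called higher after TCDD in every strain/line except Cyp1a1 in H/W (adjusted p = 0.0142), so the treatment labels fitted the arrays. Scan days were numbered 1 to 5, and within a strain/line both treatments of 19 h were spread alike over them. Days 1 to 3 held the 19 h arrays of H/W and L-E, day 4 those of both lines and day 5 the 3 h arrays. In whole liver, fewer cells of a type and less RNA per cell cannot be told apart. Here a difference was called at a Benjamini-Hochberg adjusted p under 0.01, from limma fitted across all 10411 genes, two-sided.

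**Figure D1:**
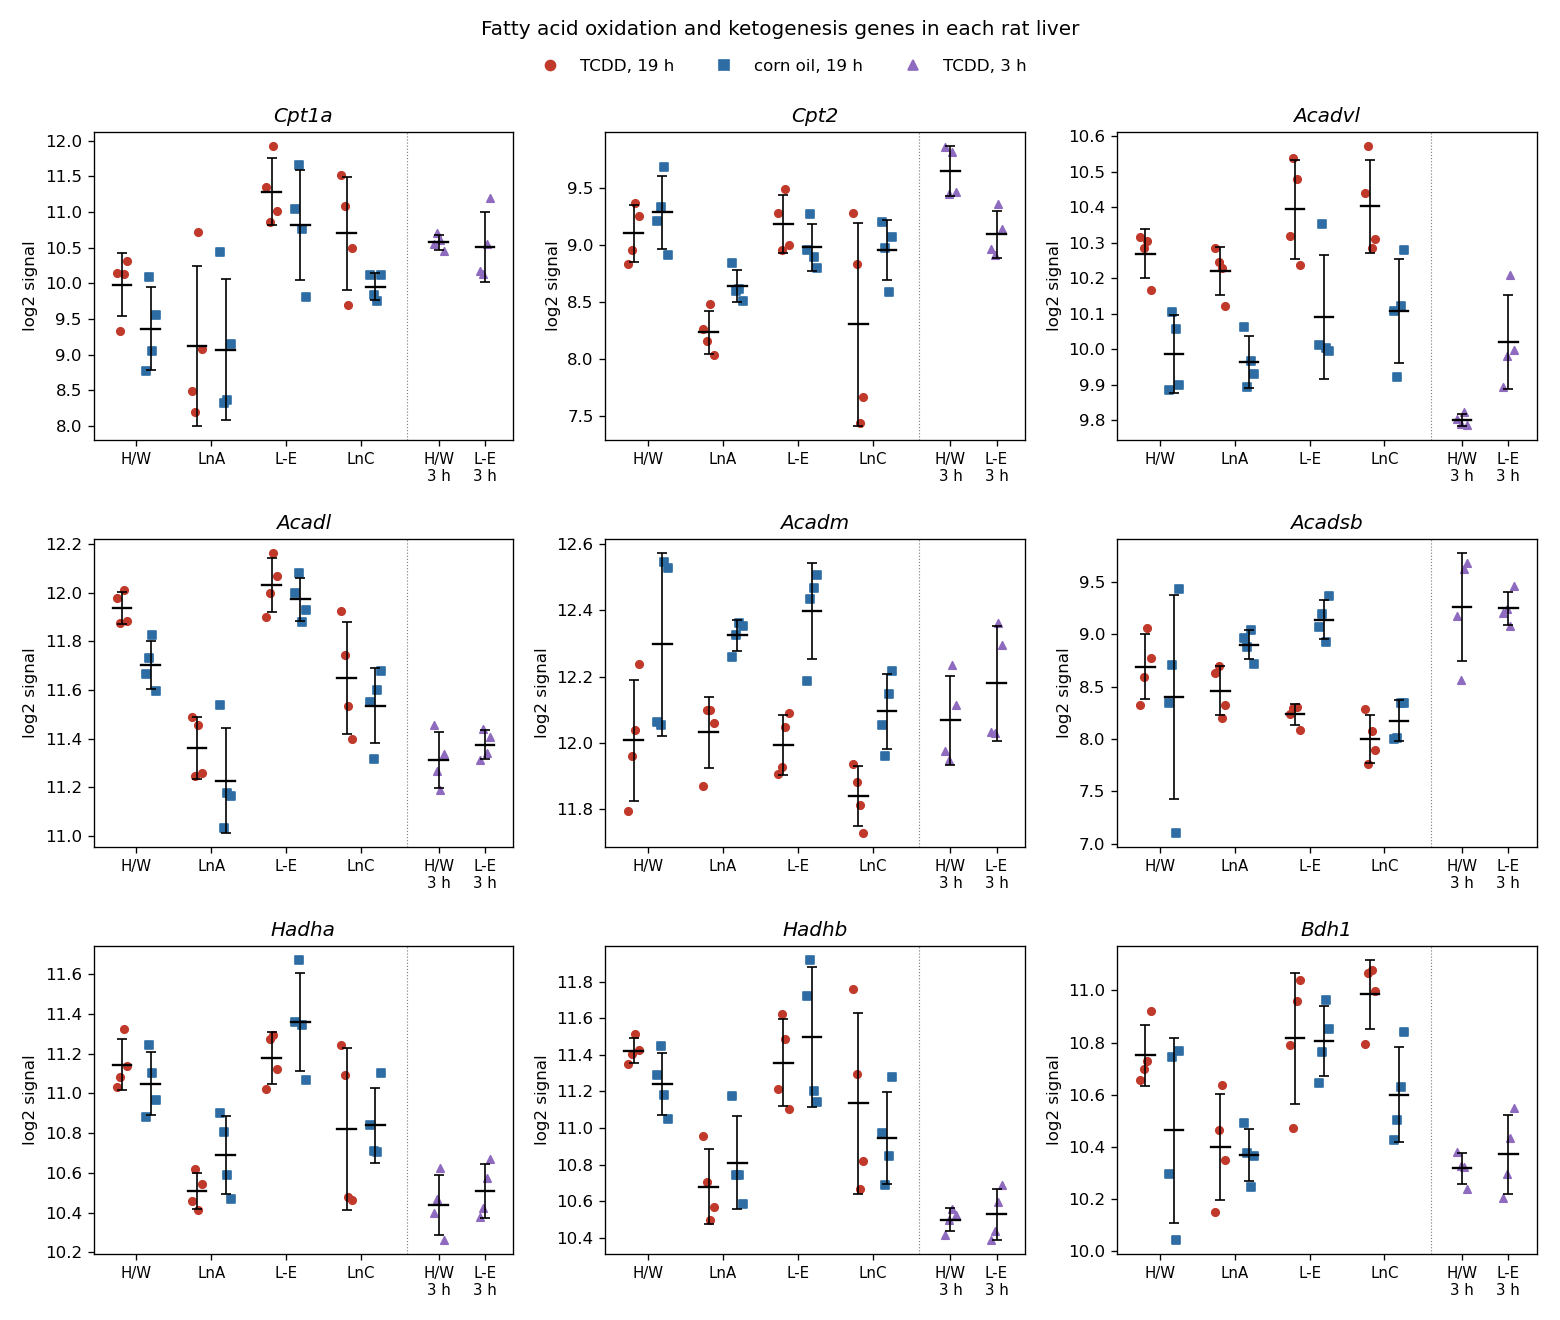
Log2 signal of each member in each of the 40 livers, by strain/line and by treatment, with the mean and SD of each group of 4 (horizontal line and bars). The TCDD points of Acadvl lie above the corn oil points in H/W, LnA and LnC, those of Acadm lie below in LnA, L-E and LnC, and Cpt1a spans 3.73 log2 units over the 32 livers of 19 h against 0.69 for Acadvl.

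TCDD was followed at 19 h by opposite shifts in the dehydrogenases for very long and for medium chains, small in size and of the same sign in all 4 strains/lines. Averaged over the 4 strains/lines, Acadvl was higher by 0.28 log2 after TCDD, 1.22 times the corn oil signal, and Acadm was lower by 0.31 log2, 0.805 times the corn oil signal. Within single strains/lines, the one called difference among the 9 members was that of Acadsb in L-E, which fell by 0.91 log2 to 0.534 times the corn oil signal. Neither Cpt1a, Cpt2, Hadha, Hadhb nor Bdh1 passed the threshold in any strain/line or in the mean response. The calls within strains/lines numbered 0 of 9 in H/W, 0 in LnA, 1 in L-E and 0 in LnC, where 0.423%, 1.09%, 2.06% and 1.13% of all genes were called. At an adjusted p under 0.05 they numbered 0, 2, 2 and 0, beside 1.48%, 3.21%, 6.49% and 3.63% of all genes, and at an unadjusted p under 0.05 they numbered 2, 4, 3 and 3, beside 12.1%, 14.2%, 18.9% and 14.9% of all genes. The TCDD and corn oil values did not overlap in 2 members in H/W (both higher), 4 in LnA (1 higher, 3 lower), 2 in L-E (both lower) and 2 in LnC (1 higher, 1 lower), beside 8.08%, 8.9%, 13.3% and 9.9% of all genes. The median difference of the members was 0.23, −0.13, 0.01 and 0.11 in H/W, LnA, L-E and LnC, and that of all genes −0.04, −0.01, 0.01 and 0.00.

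Acadvl, the dehydrogenase that begins the oxidation of very long chains, was higher after TCDD in each strain/line. H/W livers had 10.32, 10.29, 10.30 and 10.17 after TCDD, against 9.89, 10.10, 10.06 and 9.90 after corn oil. LnA livers had 10.28, 10.25, 10.23 and 10.12 after TCDD, against 10.06, 9.89, 9.97 and 9.93 after corn oil. In both of these strains/lines the 4 TCDD livers lay above the 4 corn oil livers. L-E livers had 10.32, 10.54, 10.48 and 10.24 after TCDD, against 10.01, 10.35, 10.00 and 10.00 after corn oil. LnC livers had 10.44, 10.57, 10.29 and 10.31 after TCDD, against 10.11, 9.92, 10.12 and 10.28 after corn oil. The LnC groups were narrowly apart, and in L-E 1 corn oil liver reached into the TCDD range. The differences were 0.28 (SE 0.065) in H/W, 0.26 (SE 0.051) in LnA, 0.30 (SE 0.10) in L-E and 0.30 (SE 0.091) in LnC. None passed the threshold on its own (limma, adjusted p = 0.102, 0.0414, 0.16 and 0.158 in that order), and with a block for the replicate number the adjusted p in LnA was 0.06. Within scan days the difference was 0.43, 0.21 and 0.27 in H/W and 0.31 and 0.30 in L-E.

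Acadm, which acts on medium chains, moved the other way. H/W livers had 11.79, 11.96, 12.04 and 12.24 after TCDD, against 12.06, 12.05, 12.55 and 12.53 after corn oil. LnA livers had 11.87, 12.10, 12.10 and 12.06 after TCDD, against 12.26, 12.33, 12.36 and 12.35 after corn oil. The H/W groups overlapped through 1 TCDD liver, and the LnA groups were apart. L-E livers had 11.90, 11.93, 12.05 and 12.09 after TCDD, against 12.19, 12.43, 12.47 and 12.51 after corn oil. LnC livers had 11.94, 11.88, 11.81 and 11.73 after TCDD, against 12.05, 11.96, 12.15 and 12.22 after corn oil. All 4 TCDD livers lay below all 4 corn oil livers in both. The differences were −0.29 (SE 0.15) in H/W, −0.29 (SE 0.058) in LnA, −0.41 (SE 0.080) in L-E and −0.26 (SE 0.068) in LnC, with adjusted p = 0.509, 0.0411, 0.0286 and 0.105 (limma). Within scan days the difference was −0.27, −0.30 and −0.29 in H/W and −0.28 and −0.45 in L-E.

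The mean TCDD response over the 4 strains/lines, a comparison added after the within-strain values had been seen, was fitted on the 32 livers of 19 h. It called 2 of the 9 members, where 13.9% of all genes were called, and 5 members had an unadjusted p under 0.05, beside 28.1% of all genes. Acadvl averaged 10.32 after TCDD and 10.04 after corn oil, a difference of 0.28 (SE 0.042, 95% confidence interval 0.20 to 0.37, limma adjusted p = 9.63e-06). Acadm averaged 11.97 after TCDD and 12.28 after corn oil, a difference of −0.31 (SE 0.051, 95% confidence interval −0.42 to −0.21, adjusted p = 4.07e-05). Both calls held when any 1 of the 32 livers was left out and under every other alternative tried for this comparison. The other members had mean differences of 0.47 for Cpt1a, −0.26 for Cpt2, 0.14 for Acadl, −0.31 for Acadsb, −0.07 for Hadha, 0.02 for Hadhb and 0.18 for Bdh1, with adjusted p from 0.0653 to 0.881. The 95% confidence interval lay above 0 for Acadl (0.03 to 0.24) and Bdh1 (0.04 to 0.32) and below 0 for Acadsb (−0.59 to −0.02), with adjusted p of 0.0653, 0.0731 and 0.133. For Bdh1 this held in 1 probe set only, since the second gave 0.07 with an interval of −0.07 to 0.21 (limma, adjusted p = 0.6). Acadsb turned on 1 liver, since without H/W corn oil replicate 3 its mean difference was −0.41 with a limma adjusted p of 0.00134.

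**Figure D2:**
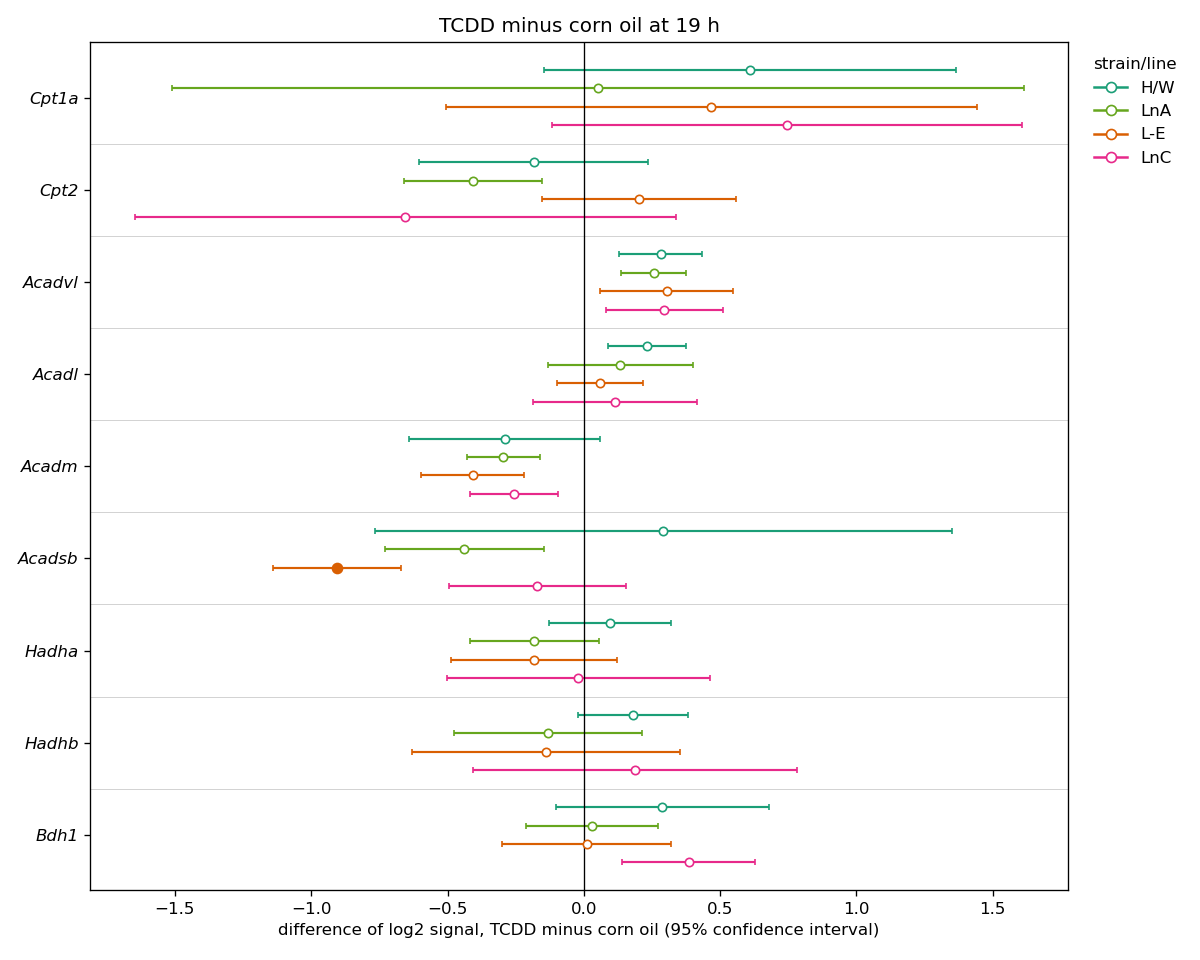
Difference of log2 signal, TCDD minus corn oil at 19 h, of each member (rows) in H/W, LnA, L-E and LnC (colours), with 95% confidence intervals from limma; the filled point is the one called at an adjusted p under 0.01. Acadvl is above 0 in all 4 (0.26 to 0.30), Acadm is below 0 in all 4 (−0.41 to −0.26), and the filled point is Acadsb in L-E at −0.91.

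Acadsb, the dehydrogenase of short branched chains, had the only called TCDD difference within a strain/line. L-E livers had 8.24, 8.30, 8.31 and 8.09 after TCDD, against 9.07, 9.20, 8.92 and 9.37 after corn oil. LnA livers had 8.63, 8.70, 8.20 and 8.33 after TCDD, against 8.96, 8.88, 9.04 and 8.72 after corn oil. In both the TCDD livers lay below all corn oil livers, widely in L-E and narrowly in LnA. LnC livers had 8.29, 7.76, 8.07 and 7.89 after TCDD, against 8.00, 8.01, 8.35 and 8.34 after corn oil. H/W livers had 8.32, 8.59, 9.06 and 8.78 after TCDD, against 8.35, 8.71, 7.10 and 9.44 after corn oil. These groups overlapped, and the H/W corn oil rats spanned more than 2 log2 units, with replicate 3 the lowest of the 40 livers. The difference was −0.91 in L-E (SE 0.10, 95% confidence interval −1.14 to −0.67, limma adjusted p = 0.00371), −0.44 in LnA (adjusted p = 0.134), −0.17 in LnC (adjusted p = 0.776) and 0.29 in H/W (SE 0.46, adjusted p = 0.695). Without corn oil replicate 3 the difference in H/W was −0.14. In L-E it was −0.83 within scan day 1 (1 rat against 1) and −0.93 within scan day 2 (3 against 3), and the adjusted p was 0.00925 with scan day as a block. The adjusted p of L-E rose above 0.01 without TCDD replicate 1 (0.0158), 3 (0.0114) or 4 (0.0137) and without corn oil replicate 1 (0.0119) or 2 (0.0147). It also did so with a block for the replicate number (0.0428) and in 1 fit over all 8 groups of 19 h (0.0313). The difference stayed between −0.98 and −0.83 on leaving out any 1 rat.

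The muscle and brown fat markers had a summed linear signal in L-E of 39.65 to 45.27 after TCDD and 45.31 to 58.99 after corn oil. Limma called 0 of these 5 markers there, at an adjusted p under 0.01 or under 0.05, with 1 at an unadjusted p under 0.05, and 4 of 5 of them after TCDD and 3 of 5 after corn oil lay below the array median. The macrophage and other immune markers summed to 2104 to 2835 after TCDD and 2129 to 2940 after corn oil in L-E, and the hepatocyte markers to 211000 to 238100 after TCDD and 214700 to 229800 after corn oil. In LnC the immune markers summed to 1859 to 2749 after TCDD and 2716 to 3224 after corn oil, with 1 of 7 called lower, beside 1.13% of all genes called. In the mean TCDD response, where 13.9% of all genes were called, 3 of 7 hepatocyte markers were called (1 higher, 2 lower) and 1 of 7 immune markers (lower). There were also 2 of 9 stellate and endothelial markers (1 higher, 1 lower), 1 of 4 bile duct markers (lower), 0 of 5 muscle and brown fat markers and 0 of 2 white fat markers. The part of these markers in the members' values was not tested.

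Of the members, Cpt1a varied most between rats of 1 group, with a within-group SD of 0.73 over the 32 livers of 19 h. Cpt1a, which sets the rate at which long chains enter the mitochondrion, had 11.35, 10.86, 11.92 and 11.01 in L-E livers after TCDD, against 11.04, 11.65, 10.77 and 9.81 after corn oil. LnA livers had 8.50, 8.20, 10.71 and 9.08 after TCDD, against 10.45, 8.32, 8.37 and 9.15 after corn oil, so that each LnA group held 1 rat more than 1 log2 unit above the rest. H/W livers had 10.14, 9.33, 10.13 and 10.31 after TCDD, against 8.77, 10.09, 9.05 and 9.56 after corn oil. LnC livers had 11.51, 11.08, 9.70 and 10.50 after TCDD, against 10.11, 9.83, 9.76 and 10.11 after corn oil. TCDD and corn oil groups overlapped in all 4 strains/lines. The differences of 0.61 in H/W, 0.05 in LnA, 0.47 in L-E and 0.75 in LnC were within the spread between rats (limma, adjusted p from 0.433 to 0.976), and an increase of up to 1.37, 1.61, 1.44 and 1.61 log2 lay within their 95% confidence intervals. The second probe set of Cpt1a correlated with the first at r = 0.93 over the 32 arrays. It gave −0.44 in LnA, 0.54 in L-E, 0.91 in LnC and, in H/W, a difference with a 95% confidence interval of 0.13 to 1.88 (adjusted p = 0.35), so the sign in LnA differed between the probe sets.

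Cpt2, which returns acylcarnitines to acyl-CoA, had 8.26, 8.16, 8.48 and 8.03 in LnA livers after TCDD, against 8.84, 8.60, 8.62 and 8.51 after corn oil. The LnA groups were apart, by a difference of −0.41 that did not pass the threshold (limma, adjusted p = 0.109). LnC livers had 9.28, 8.83, 7.44 and 7.66 after TCDD, against 9.20, 8.98, 8.59 and 9.08 after corn oil. A pair of TCDD rats was thus more than 1 log2 unit below the other pair, and the difference of −0.65 had a 95% confidence interval of −1.65 to 0.34. Cpt2 lay between 8.84 and 9.37 in H/W livers after TCDD, against 8.92 and 9.68 after corn oil. In L-E livers it lay between 8.95 and 9.50 after TCDD, against 8.79 and 9.27 after corn oil.

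Acadl, the long-chain dehydrogenase, had 11.98, 11.88, 12.01 and 11.88 in H/W livers after TCDD, against 11.67, 11.73, 11.83 and 11.59 after corn oil. The H/W groups were apart, by 0.23 (SE 0.061, limma adjusted p = 0.151). In LnA, L-E and LnC the groups overlapped and the differences were 0.13, 0.06 and 0.11.

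The subunits of the trifunctional protein showed no called TCDD difference at 19 h. Hadha had 11.03, 11.08, 11.33 and 11.14 in H/W livers after TCDD, against 10.88, 11.24, 11.10 and 10.97 after corn oil. In LnC livers it had 11.25, 11.09, 10.48 and 10.46 after TCDD, against 10.84, 10.71, 10.70 and 11.11 after corn oil. The groups overlapped in every strain/line, with differences from −0.18 to 0.10. Hadhb had 11.76, 11.29, 10.67 and 10.82 in LnC livers after TCDD, against 10.97, 10.69, 10.85 and 11.28 after corn oil. Its differences ran from −0.14 in L-E to 0.19 in LnC. In LnC the same pair of TCDD rats was low in Hadha, Hadhb and Cpt2. Bdh1, the ketone body enzyme, had 10.79, 11.07, 11.08 and 11.00 in LnC livers after TCDD, against 10.43, 10.50, 10.63 and 10.84 after corn oil. A single corn oil rat reached the TCDD range, and the difference was 0.38 (SE 0.10, limma adjusted p = 0.107), while the second probe set of Bdh1 gave 0.16. In H/W, LnA and L-E the differences of Bdh1 were 0.29, 0.03 and 0.01.

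Whether the response to TCDD differed by AHR genotype was tested as an interaction, and limma called 0 of the 9 members in each of 3 such tests, for H/W minus L-E, LnA minus LnC, and the resistant minus the sensitive strains/lines. Of all genes, 0.0384%, 0.0768% and 0.0961% were called in that order. At an unadjusted p under 0.05 the members numbered 1, 1 and 0, beside 9.7%, 4.76% and 7.93% of all genes. The member at H/W minus L-E was Acadsb, whose responses differed by 1.20 (SE 0.50, adjusted p = 0.459), and by 0.77 without H/W corn oil replicate 3. That at LnA minus LnC was Bdh1, at −0.35 (SE 0.15, adjusted p = 0.981). For Acadvl the response of the resistant strains/lines minus that of the sensitive ones was −0.03 (95% confidence interval −0.20 to 0.14), and for Acadm it was 0.04 (−0.17 to 0.25). Differences between genotypes inside these intervals were compatible with the data. The intervals are no limit of detection, and with 4 rats per group larger differences could also miss the threshold.

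Without TCDD, most members had lower mean signals in H/W and LnC livers than in L-E livers, and in LnA livers than in H/W and LnC livers. In corn oil rats 8 of 9 members had a negative difference for H/W minus L-E and 8 of 9 for LnC minus L-E, while 7 of 9 were negative for LnA minus H/W and 7 of 9 for LnA minus LnC. The median difference of the members was −0.27, −0.44, −0.30 and −0.15 in that order, and that of all genes 0.05, 0.05, 0.02 and 0.01. These comparisons share arrays, and several members varied together between rats of a group (r = 0.84 for Hadha and Hadhb). Their signs are therefore not independent, and a few rats can set several of them. Limma called 0 of 9 in each comparison. The shares of all genes called were 0.999%, 2.41%, 1.9% and 0.394% in that order. At an unadjusted p under 0.05 there were 5, 5, 4 and 1 of the members, beside 16.9%, 24.3%, 17.4% and 9.45% of all genes. At an adjusted p under 0.05 there were 2 members at LnA minus H/W (5.63% of all genes) and 2 at LnC minus L-E (7.15%). Acadl had 11.54, 11.03, 11.18 and 11.16 in LnA corn oil livers, against 11.67, 11.73, 11.83 and 11.59 in H/W corn oil livers, a difference of −0.48 (SE 0.10, adjusted p = 0.0145). It had 11.55, 11.32, 11.60 and 11.68 in LnC corn oil livers, against 12.00, 12.08, 11.88 and 11.93 in L-E corn oil livers, a difference of −0.44 (adjusted p = 0.0193). LnA thus lay below H/W, and LnC below L-E, with no overlap. The adjusted p of Acadl at LnA minus H/W was 0.00216 without LnA corn oil replicate 1, the highest rat of its group in 7 of the 9 members.

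Cpt2 in corn oil livers was lower in LnA than in H/W by 0.64 log2 (adjusted p = 0.0337 in the limma fit of the 16 corn oil livers). Hadha averaged 10.84 in LnC and 11.36 in L-E corn oil livers, a difference of −0.52 (limma, adjusted p = 0.0344). Cpt1a averaged 9.37 in H/W and 10.82 in L-E corn oil livers, the widest gap among the members (−1.45, 95% confidence interval −2.45 to −0.45, adjusted p = 0.136). Its second probe set gave −1.66 there (limma, adjusted p = 0.123). At LnC minus L-E the first probe set gave −0.87 and the second −1.64 (adjusted p = 0.256 and 0.0763), and at LnA minus H/W they gave −0.30 and −1.02. Acadsb averaged 8.18 in LnC and 9.14 in L-E corn oil livers (−0.96, adjusted p = 0.114), and at LnA minus LnC it was higher by 0.72 with no overlap (adjusted p = 0.541). Scan day 4 held every array of both lines and none of the strains, so line against strain and scan day cannot be told apart. The order of the 4 strains/lines differed between members, and their neighbours mostly overlapped. The immune markers of the same corn oil livers summed to 1190 to 1349 in LnA and 2716 to 3224 in LnC, and to 1771 to 2666 in H/W and 2129 to 2940 in L-E. They were lower in LnA than in either LnC or H/W with no overlap in the sums. Limma called 2 of 7 lower at LnA minus LnC (median −0.52), beside 0.394% of all genes, and 1 of 7 at LnA minus H/W (median −0.36), beside 1.9%. It called 0 of 7 at H/W minus L-E and at LnC minus L-E. Of the 5 muscle and brown fat markers, 1 was called lower at H/W minus L-E and 1 at LnC minus L-E, beside 0.999% and 2.41% of all genes. The part of these markers in the corn oil values was not tested.

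**Figure D3:**
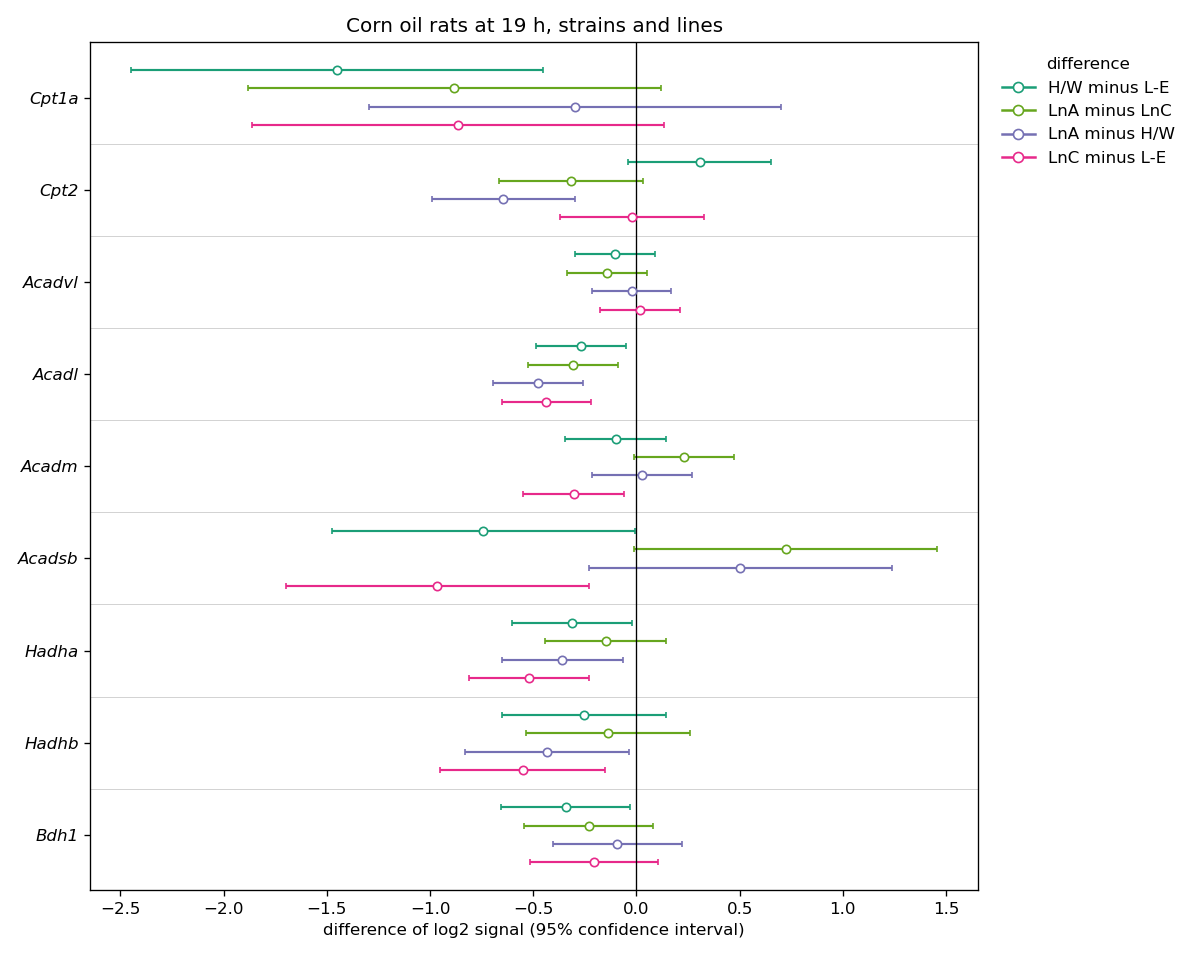
Difference of log2 signal between corn oil livers of 19 h for each member (rows), as H/W minus L-E, LnA minus LnC, LnA minus H/W and LnC minus L-E (colours), with 95% confidence intervals from a limma fit of the 4 groups. Acadl is below 0 in all 4 (−0.48 to −0.27), and no difference was called.

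At 3 h the TCDD livers of H/W and L-E had close signals for most members. Limma called 0 of 9 for H/W minus L-E (2.18% of all genes called), with 2 at an unadjusted p under 0.05, beside 35.2% of all genes. Cpt2 had 9.86, 9.45, 9.81 and 9.47 in H/W livers, against 8.96, 8.91, 9.36 and 9.14 in L-E livers, a difference of 0.55 (adjusted p = 0.0601). Acadvl had 9.80, 9.79, 9.82 and 9.79 in H/W livers, against 9.89, 9.98, 10.21 and 10.00 in L-E livers, a difference of −0.22 (adjusted p = 0.0845). In both genes the strains did not overlap. The other 7 members differed by at most 0.11 in size in the probe sets that stood for them. The second probe set of Bdh1 gave −0.27 (limma, adjusted p = 0.177). The immune markers summed to 2004 to 2170 in these H/W livers and to 2924 to 3857 in the L-E livers, with no overlap, a median difference of −0.75, 1 of 7 called lower and 5 of 7 at an unadjusted p under 0.05. Their part in the members' values was not tested.

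Between 19 h and 3 h both subunits of the trifunctional protein and Acadl were higher at the later time in both strains given TCDD. In H/W 5 of 9 members were called, all higher at 19 h, where 5.15% of all genes were called, and in L-E 4 of 9, 3 higher and 1 lower, where 4.01% were. The values did not overlap in 7 members in H/W (5 higher, 2 lower) and in 5 in L-E (4 higher, 1 lower), beside 17.8% and 18.9% of all genes. The 19 h TCDD livers of these comparisons are those already set against corn oil. Every 3 h array was scanned on day 5 and no 19 h array was, so time and scan day cannot be told apart. The immune markers of L-E summed to 2104 to 2835 at 19 h and to 2924 to 3857 at 3 h, with 0 of 7 called, and their part was not tested.

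Hadhb had 11.35, 11.40, 11.51 and 11.43 in H/W livers at 19 h, against 10.41, 10.50, 10.56 and 10.52 at 3 h. In L-E livers it had 11.22, 11.63, 11.49 and 11.11 at 19 h, against 10.39, 10.44, 10.60 and 10.69 at 3 h. Both strains were apart in time, by 0.93 in H/W (SE 0.045, limma adjusted p = 7.96e-05) and 0.83 in L-E (SE 0.13, adjusted p = 0.0083). Hadha was higher at 19 h by 0.71 in H/W (adjusted p = 0.0034) and 0.67 in L-E (adjusted p = 0.00461). Acadl was higher by 0.62 in H/W (adjusted p = 0.00125) and 0.66 in L-E (adjusted p = 0.00135). Its 19 h livers in both strains, corn oil included, lay between 11.59 and 12.16 and its 3 h livers between 11.19 and 11.46. Acadvl was higher by 0.47 in H/W (adjusted p = 0.000547) and 0.37 in L-E (adjusted p = 0.0435), and Bdh1 by 0.43 in H/W (adjusted p = 0.00504) and 0.44 in L-E (adjusted p = 0.0913).

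In the probe sets that stood for the genes, the members whose H/W values at 19 h lay below those at 3 h were the carnitine palmitoyltransferases. Neither was called. Cpt1a had 10.14, 9.33, 10.13 and 10.31 in H/W livers at 19 h, against 10.55, 10.71, 10.61 and 10.45 at 3 h, a difference of −0.60 (limma, adjusted p = 0.122). The second probe set of Cpt1a did not show this fall in H/W. It lay between 9.52 and 10.25 at 19 h and between 9.87 and 10.14 at 3 h, a difference of 0.01 (limma, adjusted p = 0.97). Cpt2 had 8.84, 8.95, 9.37 and 9.25 in H/W livers at 19 h, against 9.86, 9.45, 9.81 and 9.47 at 3 h, a difference of −0.55 (adjusted p = 0.0633). In L-E the groups overlapped in both genes in these probe sets, and the differences were 0.77 for Cpt1a (adjusted p = 0.185) and 0.09 for Cpt2 (adjusted p = 0.68). With the second probe set of Cpt1a the L-E groups were apart. It lay between 10.85 and 11.77 at 19 h and between 9.28 and 10.70 at 3 h, a difference of 1.29 (limma, adjusted p = 0.0813).

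Acadsb ran the other way in L-E, with 8.24, 8.30, 8.31 and 8.09 at 19 h, against 9.20, 9.24, 9.08 and 9.46 at 3 h. The difference was −1.01 (SE 0.088, limma adjusted p = 0.00122), whereas the L-E corn oil livers of 19 h lay 0.11 below the 3 h livers. In H/W Acadsb was also lower at 19 h, by 0.57 with overlap (limma, adjusted p = 0.271). There the corn oil livers of 19 h, replicate 3 at 7.10 among them, lay 0.86 below the 3 h livers. For Hadha, Hadhb and Acadl the corn oil livers of 19 h were also above the 3 h TCDD livers, by 0.61, 0.75 and 0.39 in H/W and by 0.85, 0.97 and 0.60 in L-E. Those livers differ in treatment, time and scan day at once, and the difference was not tested. Acadvl, Acadl and Hadhb in H/W and Acadl and Acadsb in L-E stayed called when any 1 of the 8 rats was left out. Hadhb in L-E lost its call without any 1 of the 8 (0.0103 to 0.0288), Hadha in L-E and Bdh1 in H/W without 6 of the 8 (up to 0.0171 and 0.0164), and Hadha in H/W without 3 h replicate 1 (0.013), 3 h replicate 2 (0.0105) or 19 h replicate 4 (0.0126).

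**Figure D4:**
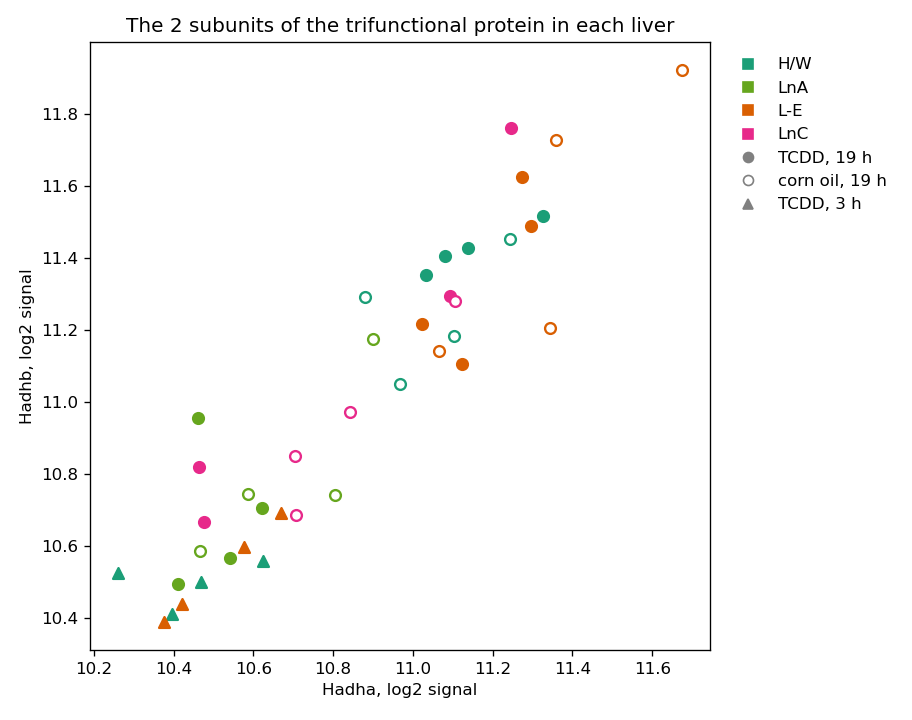
Hadhb against Hadha, log2 signal, in each of the 40 livers, coloured by strain/line, with filled circles for TCDD at 19 h, triangles for TCDD at 3 h and open circles for corn oil at 19 h. The points rise together, the 3 h livers sit between 10.26 and 10.67 for Hadha, and the highest point is L-E corn oil replicate 2.

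Rats of 1 group that were high in one member of the long-chain pathway tended to be high in the others. This was measured on the deviations of the 32 livers of 19 h from their group means, which removes strain/line and treatment, over all 36 pairs of members. Hadha and Hadhb had r = 0.84 and rho = 0.79 (permutation within groups, two-sided, 1e-05 for r, the smallest the 100000 permutations can give, and adjusted p = 0.00036 over the 36 pairs), and r = 0.79 without the 2 livers farthest out in Hadha. The value was 0.88 among LnA and LnC and 0.77 among H/W and L-E. Cpt2 and Hadha had r = 0.76, Acadvl and Hadhb 0.72, Acadl and Hadhb 0.71, Hadha and Acadvl 0.69, and Cpt1a and Cpt2 0.55 (rho 0.67, 0.75, 0.68, 0.69 and 0.56), with adjusted permutation p of 0.00734, 0.00288, 0.00302, 0.00302 and 0.00528. Among LnA and LnC, and then among H/W and L-E, these were 0.83 and 0.59, 0.74 and 0.75, 0.81 and 0.50, 0.66 and 0.77, and 0.59 and 0.45. The weakest pairs of the same genes were Cpt1a with Acadvl (0.39), Cpt1a with Hadhb (0.45) and Cpt2 with Acadvl (0.46). Their adjusted permutation p was 0.078, 0.078 and 0.0637.

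Acadm stood outside this group over the 32 livers, with r from −0.12 to 0.25 against every other member. Its r ran from 0.20 to 0.47 among LnA and LnC, and from −0.40 to 0.21 among H/W and L-E. Acadsb and Bdh1 had r = 0.46, but 0.01 without the 2 livers farthest out, so that value rests on those livers. L-E corn oil replicate 2 was the highest of its group in 6 of the 9 members (Cpt1a, Cpt2, Acadvl, Acadl, Hadha and Hadhb), LnC corn oil replicate 4 in 6, and LnA corn oil replicate 1 and LnC TCDD replicate 1 in 7 each. Feeding state and time of killing within a group were not analysed here.

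**Figure D5:**
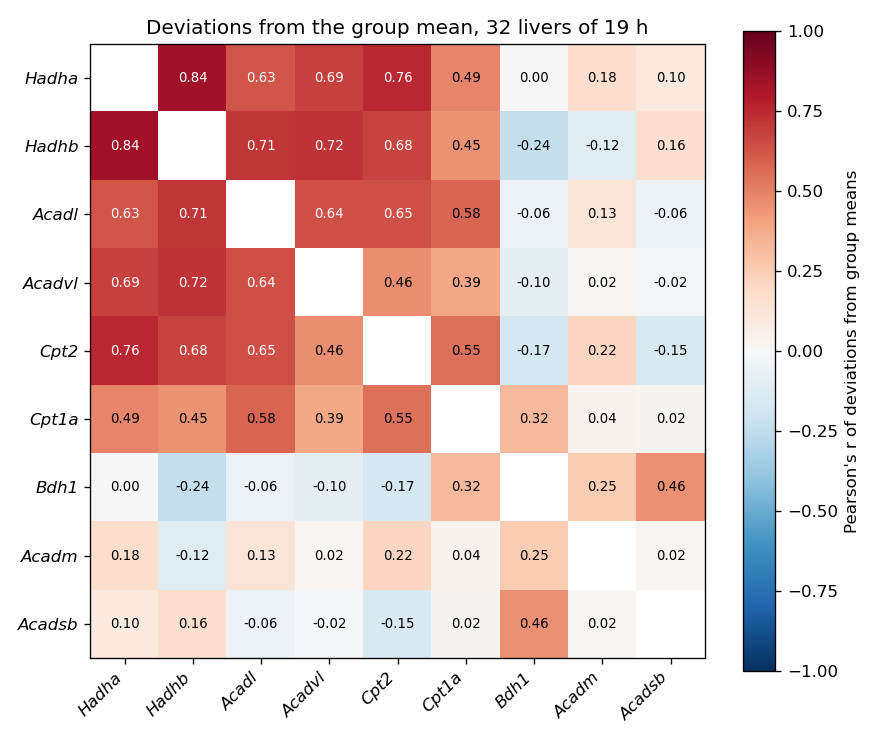
Pearson's r between members of the deviations from the group mean in the 32 livers of 19 h, from −1 (blue) to 1 (red). Hadha, Hadhb, Acadl, Acadvl, Cpt2 and Cpt1a form a block of positive values up to 0.84, and Acadm, Acadsb and Bdh1 lie outside it.

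The genes most like each member over the 32 livers of 19 h, group differences included, were named by the highest Pearson's r among all genes. For Hadha they were Ech1 (r = 0.93), an enoyl-CoA isomerase, and Hadhb (0.91), and for Hadhb they were Ech1 (0.92) and Hadha (0.91). Acadl was closest to Aco1 (0.91) and Man1a1 (0.90), Acadvl to Pxk (0.87) and Slc4a4 (0.85), and Acadm to Acot12 (0.77) and Acy3 (0.77). Cpt1a was closest to Atl2 (0.82) and Abhd2 (0.81), Cpt2 to Mmp14 (0.83) and Sidt2 (0.83), Acadsb to Trim11 (0.63) and Sec14l2 (0.60), and Bdh1 to Nr5a2 (0.72) and C1s (0.71).

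The other genes of the pathway were counted on a list of 39, of which 36 were analysed here. In the mean TCDD response 6 were called higher and 7 lower, where 13.9% of all genes were called. The median of the 36 was −0.05, beside −0.01 for all genes. Among genes that bring fatty acids to acyl-CoA, Slc27a5, which acts on bile acids and fatty acids, averaged 12.08 after TCDD and 12.93 after corn oil (−0.84, limma adjusted p = 2.76e-08). The acyl-CoA synthetases split, with Acsl1 (−0.32), Acsl3 (−0.44) and Acsl4 (−0.37) lower and Acsl5 (0.40) higher. Within beta-oxidation, Acaa2, the thiolase of the last step, averaged 11.80 after TCDD and 12.28 after corn oil (−0.48, adjusted p = 2.08e-07). Eci2, an isomerase for unsaturated chains, averaged 11.79 after TCDD and 11.20 after corn oil (0.59, adjusted p = 1.27e-09). Acad9, a further dehydrogenase of long chains, was higher by 0.48, and Etfdh, which passes their electrons to the respiratory chain, was higher by 0.25.

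Pdk4, a kinase that shuts off pyruvate dehydrogenase, averaged 8.45 after TCDD and 7.18 after corn oil (1.28, limma adjusted p = 0.000222). Mlycd, which breaks down malonyl-CoA, the inhibitor of Cpt1a, averaged 9.63 after TCDD and 9.16 after corn oil (0.47, adjusted p = 1.68e-08). Acot2, a mitochondrial thioesterase, was lower by 0.89, and Slc16a1, a carrier of lactate and ketone bodies, was lower by 0.32. Within strains/lines, limma called 0 of the 36 in H/W and in LnA, 3 in L-E (Acad9 0.63, Mlycd 0.58 and Slc27a5 −0.82) and 1 in LnC (Eci2 0.63). Of all genes, 0.423%, 1.09%, 2.06% and 1.13% were called in H/W, LnA, L-E and LnC. In the same order the pathway genes numbered 0, 5, 6 and 4 at an adjusted p under 0.05, and 9, 14, 14 and 13 at an unadjusted p under 0.05, beside the shares of all genes given above for these thresholds. Between times, 6 were called higher at 19 h than at 3 h in H/W, among them Eci1 by 1.66, where 5.15% of all genes were called. In L-E 2 were higher (Decr1 0.82 and Acads 0.60) and 3 lower (Acaca −1.62, Echs1 −0.61 and Slc27a5 −0.59), where 4.01% of all genes were called.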

How the data were processed

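The authors scanned the arrays and deposited 1 log2 signal per probe set and array, made with GCRMA 2.4.1 (affy 1.10.0, R 2.3.1) per the submitters' processing notes, while the methods of the study describe RMA. GCRMA subtracts a background modelled from probe sequence and quantile-normalizes the arrays, so values are relative and low signals are compressed. The deposited scanner files were used only for scan days (unit: other). Of 15923 probe sets, 57 were controls, 12783 had 1 symbol, 312 several and 2771 none. Where a gene had several probe sets, the one of highest average signal in the 32 arrays of 19 h stood for it (10411 genes, 1868 of them with several probe sets). The number of arrays limits the precision.

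Differences were tested with limma 3.58.1 in R 4.3.3 within each strain/line (8 arrays), with 16 arrays for interactions within pairs and for corn oil rats and 32 for the interaction of all strains/lines and the mean response. P-values were adjusted by the Benjamini-Hochberg method over the 10411 genes. They measure the spread between these rats. Scripts were tested on simulated data. The text names the 9 members, called genes of the list of 39 pathway genes, the 2 genes most alike each member, and marker lists of hepatocyte, macrophage and other immune, stellate and endothelial, bile duct, muscle and brown fat, and white fat. Members and lists were chosen with earlier results of these data known. Alternatives changed the probe sets used (their mean, or each alone), the genes tested (lowest 40% left out), the scaling (median centring or quantile normalization), the model (array weights, limma trend, a replicate or scan day block, a fit of 8 groups together) or the arrays (each left out in turn).

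TCDD and corn oil rats share replicate numbers in the labels, which state no pairing. Over 2245 genes with a variance above 0.1, same-numbered deviations correlated at 0.119 to 0.164 in the pairs of LnA, and at 0.0111, 0.0659 and −0.264 at the lowest in H/W, L-E and LnC. By the rule of r above 0.1 in every pair, the numbers were taken to pair the rats in LnA alone. The adjusted p values and the counts printed for LnA are from the fit without pairs, except where a block is named. With the block Acadvl in LnA no longer had an adjusted p under 0.05. Figures were drawn with Python 3.11.15 and matplotlib 3.10.9.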

Additional observations from a re-analysis of the deposited data

Results flagged for a closer look

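Acadvl in the L-E corn oil rats was set apart by 1 rat. Replicate 2 had 10.35, against 10.01 for the nearest and 10.0 for the farthest of the other 3, so that its gap to the nearest was 0.958 of the range of the group, past Dixon's critical value for 4 rats. Of 90 groups of 4 values tested in this way, about 1 in 20 would be set apart by chance. The same rat was the highest of its group in 6 of the 9 members.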

How the results depend on the processing

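Of the values of single members under the alternatives, other than those that leave out 1 rat, 1169 kept their side of the threshold, 12 lost the call and 7 gained it. Differences that were not called did not all keep their sign. The TCDD difference of Cpt1a in LnA was 0.05 with its first probe set and −0.44 with its second. The counts of members called that moved by over 1.5 times were these. With the replicate block, the count was 0 in L-E at 19 h (1 without it), 2 for 19 h minus 3 h in H/W (5 without it) and 0 for 19 h minus 3 h in L-E (4 without it). Quantile normalization gave 1 for LnA minus H/W in corn oil rats (0 otherwise), which was Acadl. Array weights gave 3 for LnC minus L-E in corn oil rats (0 otherwise) and 4 for the mean TCDD response (2 otherwise), where Acadl (adjusted p = 0.00884) and Acadsb (0.000743) were added. Leaving out 1 rat gave counts of 0 to 1 for L-E at 19 h, 0 to 1 for LnA minus H/W and 0 to 1 for LnC minus L-E. It gave 3 to 5 for 19 h minus 3 h in H/W, 2 to 3 in L-E (4 with all rats) and 2 to 3 for the mean TCDD response. The third call in the mean response was Acadsb, without H/W corn oil replicate 3 (adjusted p = 0.00134). By less than that, the count for 19 h minus 3 h was 4 in H/W with quantile normalization, where Bdh1 lost its call (0.0245), and 3 in L-E, where Hadhb lost its call with quantile normalization (0.0102) and with median centring (0.0134). The cause of these shifts was not tested, except that fewer rats enter when 1 is left out. Acadm in L-E passed the threshold in 1 fit over 8 groups (limma, adjusted p = 0.00878). In LnA, where the numbers were taken as pairs, the block changed no call of a member at 0.01.

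Of all genes, limma called 44 in H/W, 113 in LnA, 214 in L-E and 118 in LnC, and over the alternatives other than leaving out a rat these counts ran from 16 to 214, 11 to 199, 40 to 618 and 5 to 373. For the mean TCDD response the count was 1442 and ran from 1303 to 1720. Background adjustment was done before deposit and was not varied here.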
